A study of Rattus norvegicus with 63 samples.

Results

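Adra1d and Adra2a encode an alpha-1 and an alpha-2 adrenergic receptor, and their transcript levels were followed over 6 brain regions of rats that differed in daily access to cocaine. The members were the probe sets whose only gene symbol in the platform annotation is Adra1d or Adra2a. These were 3 of 1263 probe sets beside the controls, and they stand for 2 of the 720 genes named on the array. Adra1d has 2 probe sets, M60654_at and AF071014mRNA_s_at, and Adra2a has 1, M62372cds_s_at. The genes were picked with measured values of these arrays in view. Adra1d was picked for its level in the medial prefrontal cortex, and Adra2a for its difference between rats with and without cocaine in the lateral hypothalamus. Those values are therefore given as a description, with no test.

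Rats (Rattus norvegicus) had 0, 1 or 6 h per day in which to self-administer intravenous cocaine at 0.25 mg per injection. In the text 0 h is no access, 1 h is short access and 6 h is long access. The labels give 8 rats per group, and the no access rats had never had the drug. Affymetrix rat neurobiology arrays were made for each dissected region, 63 in all. The amygdala, nucleus accumbens and lateral hypothalamus have 4 arrays for each level of access, and the medial prefrontal cortex, ventral tegmental area and septum have 3. The strain, the sex and whether RNA of several rats shared an array are not given in the sources used here, so p-values measure only the spread between these arrays.

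Noradrenaline, released mainly by neurons of the brainstem, acts on alpha-1, alpha-2 and beta receptors. Alpha-1 receptors couple to Gq proteins, which activate phospholipase C and raise intracellular calcium. Alpha-2 receptors couple to Gi and Go proteins, which lower cyclic AMP and open potassium channels. Adra2a is found both on noradrenergic terminals, where it restrains release, and on the cells that receive them. A transcript measured in a terminal field is mainly that of local neurons and glia, since most RNA of the incoming noradrenergic neurons stays in the brainstem.

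Values are MAS5 signals, a brightness per probe set on a linear scale, rescaled so that the 2% trimmed mean of each array is 500. The median probe set of an array had a signal between 118.9 and 167.9. Signals under 32 were set to that floor before logarithms were taken, which touched 17.3% to 25.1% of the probe sets of an array. A probe set was tested in a region where its mean there reached that of a signal of 100, and limma's moderated test was called at an adjusted p under 0.05 (Benjamini-Hochberg over all probe sets tested). In bulk tissue, fewer cells of a type and less RNA per cell cannot be told apart. Except for the septum and amygdala, which had no marker list, the region labels were set against marker genes. Of these, 3 of 3 hypothalamic genes (Oxt, Avp and Gal), 4 of 4 genes of the nucleus accumbens, 4 of 4 of the ventral tegmental area and 4 of 4 of the medial prefrontal cortex were higher in their region than in the mean of the other 5. The peptides Hcrt and Pmch, which define lateral hypothalamic neurons, were not analysed here.

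Among the lateral hypothalamus arrays, the 4 of the no access group stood apart from the others of that region. Their 6 antisense control probe sets, which should give little signal, averaged 8.13 ± 0.21 in no access, 6.84 ± 0.17 in short access, and 6.75 ± 0.15 in long access (mean log2 signal, SD, n = 4 arrays each). The whole profile of all 4 no access arrays correlated best with that of the ventral tegmental area, while the septum was the best match of all 8 arrays with cocaine access, also with Adra2a left out. Every comparison with these 4 arrays below carries that difference. In the ventral tegmental area the same controls averaged 8.04 in long access and 7.10 in no access. Of the amygdala arrays, the third of the no access group had the highest antisense level, 7.98.

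Adra1d, whose receptor is one of 3 alpha-1 subtypes, gave signal on M60654_at mainly in the medial prefrontal cortex. There the probe set gave 316, 380 and 340 in no access, 301, 262 and 276 in short access, and 284, 233 and 361 in long access. On the 54 arrays of the other regions the highest signal was 45.5, and 52 of the 54 were under the floor. All of them were under the lowest cortical array, at 233. The mean in the cortex, 8.24 on the log2 scale, was at least 9.45-fold above the floor. The cortex exceeded the mean of the other 5 regions by 3.23 ± 0.06 (log2, SE), or by 5.26 where no floor was set. In the amygdala the signals ran from 6.48 to 45.5, with 10 of 12 arrays under the floor. All arrays of the septum, nucleus accumbens, ventral tegmental area and lateral hypothalamus were under the floor, so no order was read among the regions outside the cortex.

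AF071014mRNA_s_at, the other probe set of Adra1d, also had its highest level in the medial prefrontal cortex but was well above the floor in every region. Its suffix marks probes that can match other transcripts. In the cortex it gave 362, 304 and 283 in no access, 335, 317 and 252 in short access, and 308, 269 and 250 in long access. The geometric mean over the arrays of a region was 295.7 in the medial prefrontal cortex and 224 in the amygdala. Then came the septum at 183, the nucleus accumbens at 181, the ventral tegmental area at 162 and the lateral hypothalamus at 155. The cortex exceeded the mean of the other 5 by 0.72 ± 0.14 (log2, SE). Unlike for M60654_at, the regions overlapped: 6 of the 54 other arrays were at or above the lowest cortical array, at 250. Neighbours below the cortex overlapped in range, with the amygdala between 138 and 327 and the septum between 129 and 261. The lateral hypothalamus had the widest spread, between 73.5 and 268.

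The probe sets of Adra1d thus shared the highest region and differed in the size of the difference. Over the 18 groups of region and access their mean log2 signals correlated with r = 0.80 (Pearson). These groups come from the same arrays, and outside the cortex and amygdala every group of M60654_at is at the floor, so the value is descriptive. The gap between the probe sets in the cortex's excess over other regions was 2.51 on the log2 scale. This value rests on the level that picked Adra1d and on the floor, since 52 of the 54 other arrays of M60654_at are under it. Over the 179 genes with at least 2 probe sets tested, the median gap was 0.35.

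**Figure D1:**
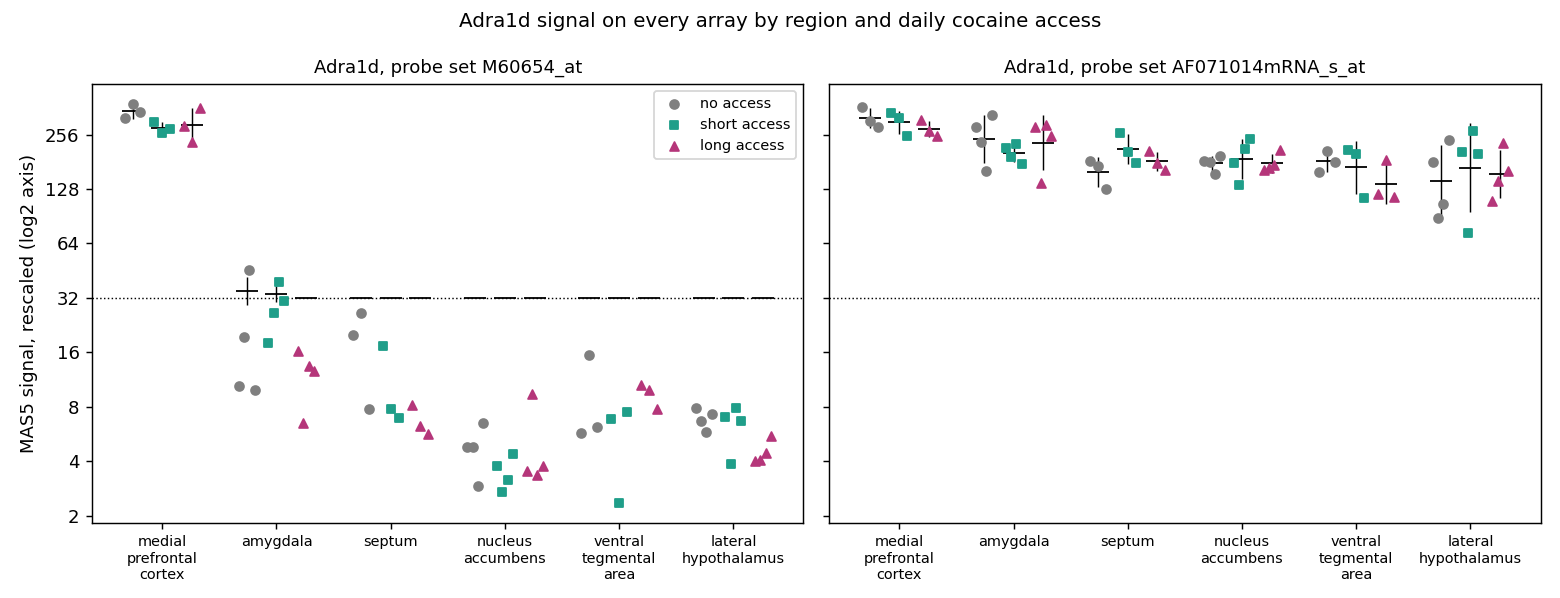
Each symbol is 1 array, placed by region and by access group (no, short and long), with the rescaled MAS5 signal on a log2 axis, and bars give the mean and SD of the floored log2 values. The dotted line is the floor of 32: M60654_at lies above it on all 9 cortical arrays and on 2 of 54 others, and AF071014mRNA_s_at lies above it on every array.

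No access contrast moved Adra1d past the threshold in the medial prefrontal cortex. M60654_at differed there by -0.26 in long against no access, by -0.30 in short against no access and by 0.05 in long against short access (log2, SE 0.22 each), with limma adjusted p between 0.996 and 1. All 3 short access arrays were under all 3 no access arrays, in a contrast where 0% of 680 probe sets were called, and the long access arrays overlapped both groups. AF071014mRNA_s_at differed by -0.19, -0.07 and -0.12 in the same contrasts (SE 0.21), with adjusted p over 0.99 in each. Of 680 probe sets tested in the cortex, 0% were called in long against no access, 0% in short against no access and 0% in long against short access.

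Outside the cortex, access to cocaine was tested for Adra1d through AF071014mRNA_s_at, since M60654_at did not pass the filter there. Over its 18 contrasts in 6 regions, limma called 0, and 0 had an unadjusted p under 0.05. The differences lay between -0.41 and 0.42, with adjusted p between 0.361 and 1. The highest was short against no access in the septum, with signals of 261, 205 and 179 in short access and 182, 172 and 129 in no access, a difference of 0.42 ± 0.20 (log2, SE). The lowest was long against no access in the ventral tegmental area, with signals of 120, 186 and 116 in long access and 159, 209 and 182 in no access, a difference of -0.41 ± 0.27. The arrays of the groups overlapped in both cases. The share of all probe sets called, in the order long against no, short against no and long against short access, was 0%, 0% and 0% in the nucleus accumbens, 0.137%, 0% and 0% in the amygdala, 2.31%, 1.9% and 2.04% in the septum, 2.91%, 0.831% and 2.63% in the ventral tegmental area, and 29.7%, 22.4% and 8.91% in the lateral hypothalamus.

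Averaged over 6 regions, no access contrast of Adra1d was called. M60654_at entered this fit only through the cortex, whose level picked Adra1d. The probe set was under the floor on every array of 4 regions, where its difference is fixed at 0, so its mean says little beyond the cortex. It differed by -0.06 in long against no access, by -0.06 in short against no access and by -0.00 in long against short access (log2, SE 0.05). AF071014mRNA_s_at differed by -0.06, 0.05 and -0.11 (SE 0.12). The limma adjusted p of these 6 values lay between 0.668 and 0.986, where 1.17%, 0.816% and 0.233% of the 858 probe sets were called.

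The only probe set of Adra2a, M62372cds_s_at, ends in the same suffix as AF071014mRNA_s_at, so it too can match other transcripts. Adra2a, the alpha-2A receptor, had its highest level in the septum. Its signal there was 210, 184 and 163 in no access, 199, 173 and 244 in short access, and 187, 185 and 104 in long access. The septum exceeded the mean of the other 5 regions by 1.67 ± 0.15 (log2, SE, limma adjusted p = 1.2e-13), a contrast in which 50.9% of probe sets were called. That mean includes the lateral hypothalamus arrays that picked Adra2a, so the p is not free of the choice of gene. The geometric means of the other regions were 113 in the lateral hypothalamus, 77.6 in the amygdala, 40.5 in the nucleus accumbens, 40.4 in the medial prefrontal cortex and 39.2 in the ventral tegmental area. In those last 3 regions the signal was near the floor, with 6 of 12, 4 of 9 and 3 of 9 arrays under it, and the single arrays ranged between 22.6 and 98.8, 25.5 and 71.4, and 20.6 and 61.7.

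Neighbours in this order were compared in 1 limma fit of all 63 arrays. The labels do not say whether arrays of different regions share rats, and this fit treated all arrays as independent. The septum was above the lateral hypothalamus by 0.67 ± 0.18 (log2, SE, adjusted p = 0.00216, 49.5% of probe sets called). With the 4 no access arrays of the hypothalamus left out, that difference was 0.10 ± 0.20 (adjusted p = 0.726). The lateral hypothalamus was above the amygdala by 0.54 ± 0.17 (adjusted p = 0.00578, 57% called). With no access arrays only, the sign was the other way, at -1.03 ± 0.31 (log2, SE), given with no p since those arrays picked the gene. The place of the lateral hypothalamus therefore moved with the access group counted, and both differences above include arrays of the contrast that picked Adra2a. The amygdala was above the nucleus accumbens by 0.94 ± 0.17 (adjusted p = 6.7e-06, 47% called). Adra2a did not reach the filter signal in either of these regions, nor in the medial prefrontal cortex or ventral tegmental area. The nucleus accumbens and medial prefrontal cortex differed by 0.00 ± 0.18 (adjusted p = 0.994, 61.4% called), and the medial prefrontal cortex and ventral tegmental area by 0.04 ± 0.20 (adjusted p = 0.852, 70.4% called). For these last 3 regions no order was found.

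**Figure D2:**
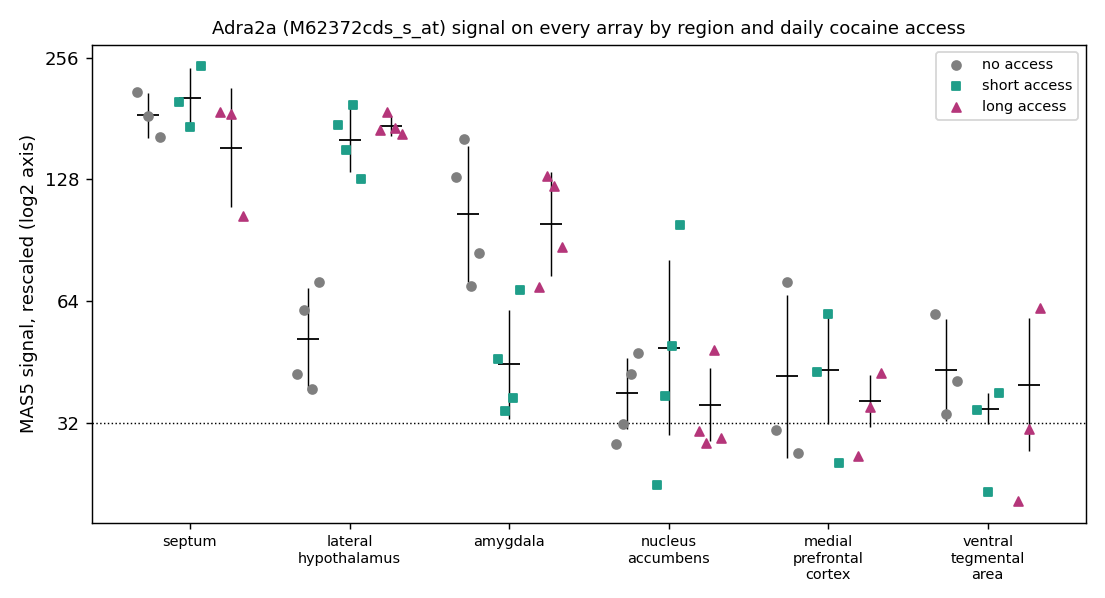
Each symbol is 1 array for Adra2a (M62372cds_s_at), placed by region and access group, with the rescaled MAS5 signal on a log2 axis, the mean and SD of the floored log2 values as bars, and the floor of 32 as a dotted line. In the lateral hypothalamus the 4 no access arrays lie at 38.9 to 71.6 and the 8 others at 128 to 196. In the amygdala the 4 short access arrays lie under the other 8.

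In the lateral hypothalamus, Adra2a gave 42.2, 60.8, 38.9 and 71.6 in no access, 174, 151, 196 and 128 in short access, and 169, 188, 172 and 166 in long access. Every array with cocaine access was above every array without it. The difference was 1.75 for long against no access and 1.63 for short against no access (log2, SE 0.22 each), or 3.36-fold and 3.10-fold. These values picked the gene, so no p is given. In the same contrasts 29.7% and 22.4% of all probe sets were called. Between the groups that both had cocaine, long and short access differed by 0.11 ± 0.22 (log2, SE, limma adjusted p = 0.822), where 8.91% of probe sets were called. The arrays of the long and short access groups overlapped. Adra2a passed the filter here only through these groups, with geometric means of 174 and 160, beside 51.7 in no access.

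The lateral hypothalamus arrays that were low in Adra2a are those that stood apart in their controls and profile. Their Adra2a signals, 38.9 to 71.6, lay near the range of the ventral tegmental area, 20.6 to 61.7, and those of the 8 other arrays, 128 to 196, lay within the range of the septum, 104 to 244. With the antisense level of each array as a covariate the difference was 2.21 for long against no access and 2.06 for short against no access (log2). With the level of the 9 bacterial spike-in controls as a covariate it was 1.02 and 1.15. The summed signal of 7 astrocyte genes also moved with the groups, at 66841 to 75267 in no access, 53236 to 65487 in short access, and 47518 to 59545 in long access. Of these genes 1 was called higher and 3 lower in long against no access, where 29.7% of all probe sets were called. The sum of 3 microglial genes was 3137 to 3634 in no access, 2574 to 2964 in short access, and 1861 to 2392 in long access, and 2 of 2 tested were called lower in long against no access. Sums of 5 oligodendrocyte genes overlapped, at 37846 to 44718 in no access, 36458 to 42170 in short access, and 32287 to 37947 in long access, and none of these marker genes was under the floor on all arrays of a group. The sum of 2 vessel and choroid plexus genes was 5318 to 6292 in no access, 4857 to 5642 in short access, and 4215 to 4869 in long access. Its range in long access lay apart from that in no access, and 1 of the 2 genes was called lower in that contrast. The hypothalamic peptide genes overlapped too, with sums of 18297 to 19030 in no access, 16640 to 22622 in short access, and 16004 to 19512 in long access. The part of any of these in the Adra2a difference was not tested.

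**Figure D3:**
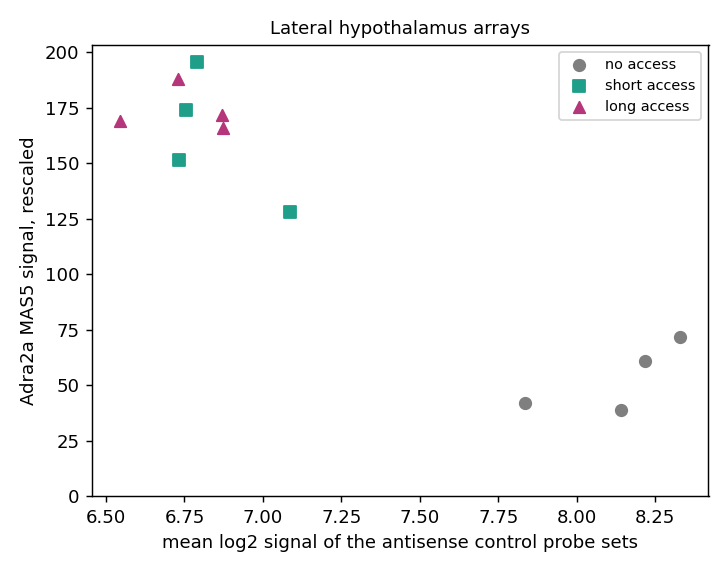
Each symbol is 1 of the 12 lateral hypothalamus arrays, with the mean log2 signal of 6 antisense control probe sets on the x axis and the rescaled Adra2a signal on the y axis. The no access arrays lie apart on both axes, with control levels of 7.84 to 8.33 and Adra2a signals of 38.9 to 71.6, and the short and long access arrays lie together at control levels of 6.55 to 7.09.

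In the septum, where Adra2a was highest, access made no difference past the threshold. Long against no access differed by -0.27, short against no access by 0.14 and long against short access by -0.41 (log2, SE 0.24 each), with limma adjusted p of 0.579, 0.799 and 0.450. The groups overlapped, and the lowest septum array, at 104, belonged to long access. Beside these, Adra2a was tested in 1 other contrast that had not picked it, long against short access in the lateral hypothalamus, so that 0 of 4 were called and 0 had an unadjusted p under 0.05. In the lateral hypothalamus Adra2a passed the filter only through the groups with cocaine. Their values picked the gene, so that contrast is not free of the choice.

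In the amygdala Adra2a was lower in the short access group than in either other group, on the arrays as they stand. It gave 129.9, 161, 69.7 and 84.2 in no access, 46.1, 34.4, 37.0 and 68.3 in short access, and 69.5, 130.2, 123 and 87.3 in long access. The highest short access array, 68.3, lay just under the lowest long access array, 69.5, and the lowest no access array, 69.7. The difference was -1.23 for short against no access and 1.15 for long against short access (log2), and -0.08 for long against no access. Each of the first 2 had an exact two-sided permutation p of 0.0286, the smallest that 4 arrays against 4 allow, and an adjusted p of 0.171 over the 12 comparisons of Adra2a in the 4 regions where it did not pass the filter. The percent of all amygdala probe sets called in these contrasts was 0. This exact test was added after the values were seen. Limma in the amygdala with no filter gave adjusted p of 0.701 and 0.930, and the fit of all 63 arrays 0.0941 and 0.254. Markers of neighbouring tissue varied in these samples. The summed signal of the hypothalamic peptide genes was 411 to 4252 in no access, 673 to 10497 in short access, and 4201 to 5626 in long access. Its part in the Adra2a values was not tested.

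In the nucleus accumbens, ventral tegmental area and medial prefrontal cortex, Adra2a did not pass the filter, and many arrays were under the floor. The differences lay between -0.47 and 0.38 (log2), and the groups overlapped in all 9 comparisons. The highest array of the 3 regions, 98.8 in the nucleus accumbens, belonged to short access, beside others of 22.6, 37.4 and 49.5 in the same group. Averaged over the 5 regions without the lateral hypothalamus, Adra2a differed by -0.15 in long against no access, by -0.20 in short against no access and by 0.04 in long against short access (log2, SE 0.15). The limma adjusted p were 0.748, 0.955 and 0.993, where 0.233% of probe sets were called in each.

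**Figure D4:**
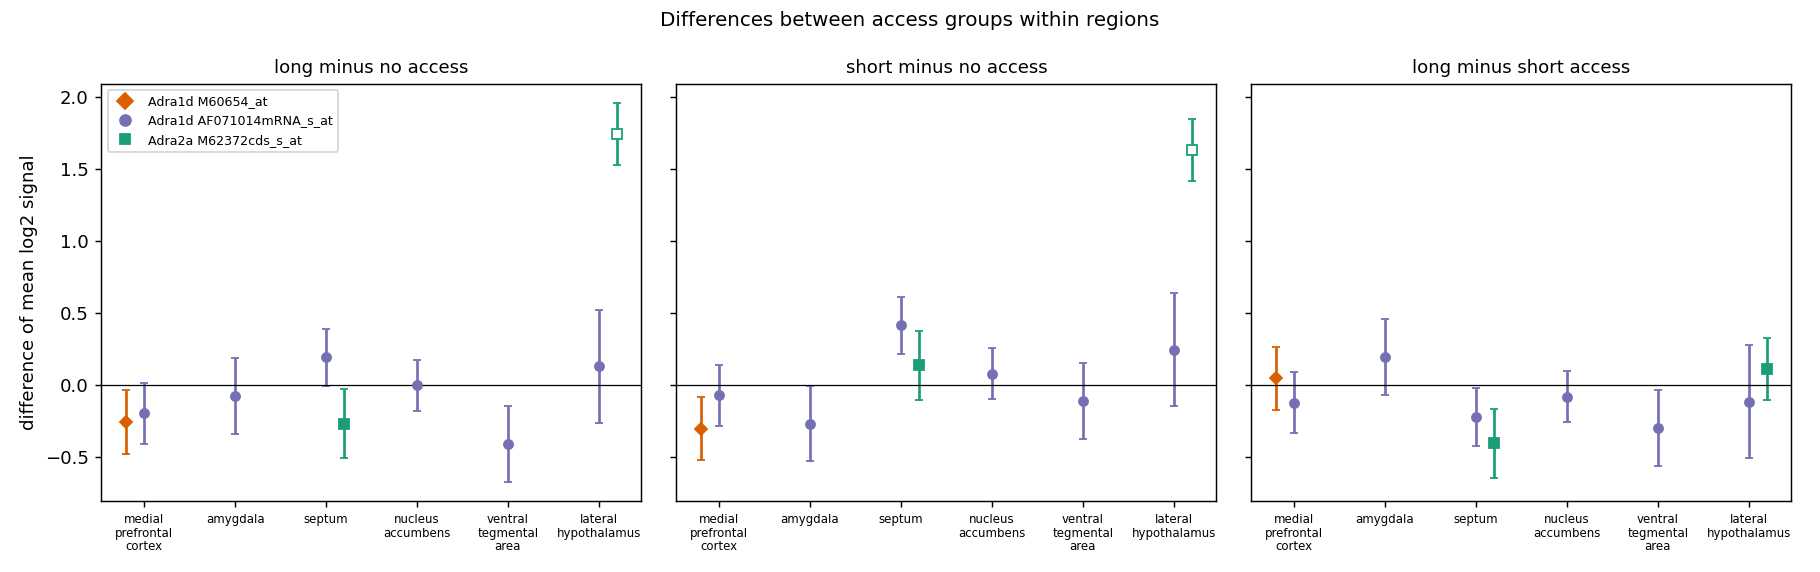
Differences of mean log2 signal between access groups are shown by region for each probe set that passed the filter there, with SE bars from limma. The open squares are the lateral hypothalamus contrasts that picked Adra2a, at 1.75 and 1.63, and all filled symbols lie between -0.41 and 0.42.

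The other adrenergic receptors on the array set these levels in their family. Of these genes 8 were analysed here. Besides Adra1d and Adra2a they are the alpha-1 receptors Adra1a and Adra1b, the alpha-2 receptors Adra2b and Adra2c, and the beta receptors Adrb1 and Adrb3. Brightness is not compared between probe sets, and each gene's regions were set against their own mean in the fit of all arrays. The filter signal was not reached by Adra1b in the nucleus accumbens or by Adra2b in the medial prefrontal cortex. Nor was it by Adra2c in the septum and ventral tegmental area, or by Adrb1 in the lateral hypothalamus and ventral tegmental area. Adra1b, the other Gq-coupled receptor that passed the filter, was above the mean of the other regions in the medial prefrontal cortex by 0.88 ± 0.09 (log2, SE, limma adjusted p = 4.4e-13) and in the ventral tegmental area by 0.82 ± 0.09 (adjusted p = 4.0e-12). In the ventral tegmental area M60654_at of Adra1d was under the floor. Adra1b was lowest in the nucleus accumbens, by -1.18 ± 0.08 (adjusted p = 1.9e-19). Adra2c, an alpha-2 receptor like Adra2a, was higher in the nucleus accumbens by 1.21 ± 0.11 (adjusted p = 1.6e-13) and lower in the septum by -0.66 ± 0.13 (adjusted p = 2.1e-05). In both regions Adra2a had the other sign, at -0.90 ± 0.13 in the nucleus accumbens and 1.67 in the septum. The mean set against Adra2a here includes the lateral hypothalamus arrays that picked it. Both were lower in the ventral tegmental area, Adra2c by -1.30 ± 0.13 (adjusted p = 5.9e-13) and Adra2a by -0.96 ± 0.15. In the amygdala Adra2c was higher by 0.79 ± 0.11 (adjusted p = 5.8e-08), and Adra2a differed by 0.22 ± 0.13 (adjusted p = 0.163). Of the 6 regions, Adra2b was called only in the medial prefrontal cortex, where it was lower by -0.37 ± 0.13 (adjusted p = 0.00942). Adrb1 was higher in the nucleus accumbens by 0.91 ± 0.21 and lower in the lateral hypothalamus by -1.17 ± 0.21 (adjusted p = 0.000139 and 2.8e-06). In the lateral hypothalamus 7 of 12 Adrb1 arrays were under the floor. It was also higher in the medial prefrontal cortex by 0.54 ± 0.23 (adjusted p = 0.0352) and lower in the ventral tegmental area by -0.53 ± 0.23 (adjusted p = 0.0407).

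**Figure D5:**
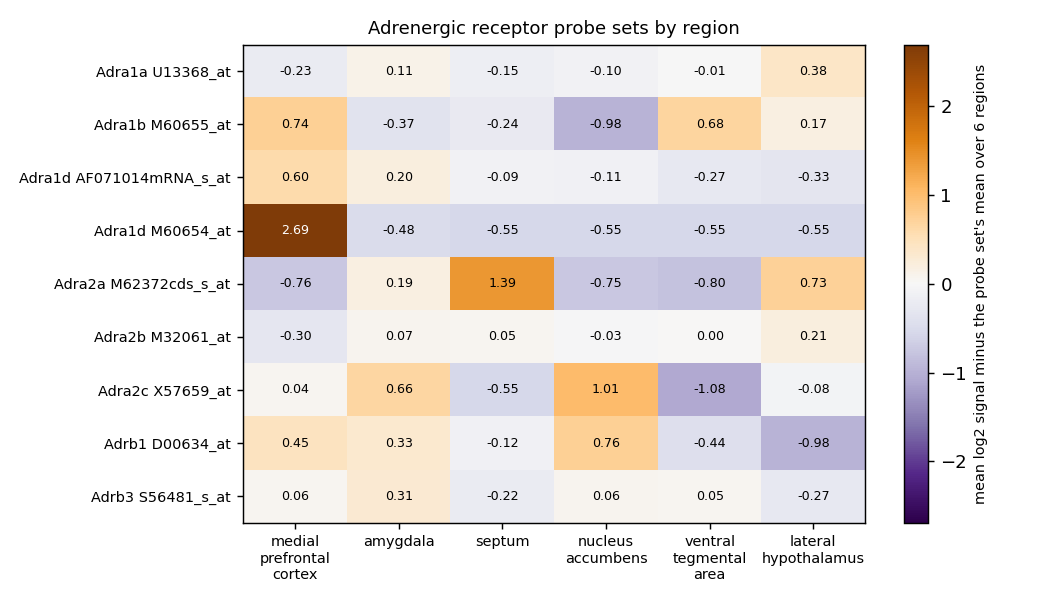
Each row is 1 adrenergic receptor probe set and each column 1 region, and the colour and number give the mean log2 signal minus the probe set's own mean over the 6 regions. M60654_at of Adra1d stands at 2.69 in the medial prefrontal cortex, and Adra2a stands at 1.39 in the septum and 0.73 in the lateral hypothalamus.

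Of the 6 other receptor genes, Adra1a did not pass the filter in any region and was not tested. The others had 69 contrasts for cocaine access over the 6 regions. Limma called 0 of them, 2 had an unadjusted p under 0.05, and the lowest adjusted p was 0.138. Of all probe sets, 0% were called in the nucleus accumbens and medial prefrontal cortex. The highest share was 29.7%, in the lateral hypothalamus in long against no access. The count is therefore not read as particular to the family.

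Genes that act with these receptors were counted in 4 lists, which cover noradrenaline synthesis, transport and breakdown, Gq signalling, Gi signalling and receptor regulators. In long against short access in the lateral hypothalamus, 0 of 4 noradrenaline genes, 0 of 4 Gq genes and 0 of 2 regulators were called. Of 7 Gi genes 1 was called higher, where 8.91% of all probe sets were called, so these counts show nothing particular to the lists. The gene was Pde4b, a phosphodiesterase that breaks down cyclic AMP, with a difference of 0.43 ± 0.12 (log2, SE, limma adjusted p = 0.0476). The median over the Gi genes was -0.03, beside 0.02 over all probe sets. In the septum, Gnb1, the beta subunit shared by G proteins, was higher in long against no access by 0.46 ± 0.08 (adjusted p = 0.00764) and in long against short access by 0.50 ± 0.08 (adjusted p = 0.0222). It was the only one of 8 Gi genes called there and was picked out after its values were seen. Limma called 0 of 6 Gq genes, 0 of 3 noradrenaline genes and 0 of 2 regulators in the septum contrasts, in which 2.31%, 1.9% and 2.04% of all probe sets were called. For the mean of 6 regions in long against no access, limma called 0 of 5 noradrenaline genes, 0 of 6 Gq genes, 0 of 10 Gi genes and 0 of 3 regulators, where 1.17% of all probe sets were called. Lists this short would show few calls at such shares.

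Set against the lateral hypothalamus arrays of no access, which stood apart, these lists moved in both directions. In long against no access 0 Gi genes were called higher and 2 of 7 lower (Crem and Gnb1), and 0 Gq genes higher and 2 of 4 lower (Plcb1 and Prkcb). Of 4 noradrenaline genes 1 was higher (Th) and 2 lower (Maoa and Maob), and of 2 regulators 1 was higher (Grk2, a kinase that desensitises receptors). Adra2a was picked from this contrast, with 29.7% of all probe sets called, and nothing is read from these counts.

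Likeness over the 18 groups of region and access was given by Pearson's r of mean log2 signals, over 412 genes whose group means spanned at least 1 log2 unit. Nearest to M60654_at of Adra1d were Snap25 (r = 0.87), a protein of vesicle fusion, Cntn4 (0.86), an adhesion molecule, Fos (0.82), an activity-induced transcription factor, Slc6a15 (0.81), an amino acid transporter, and Kcnk1 (0.81), a potassium channel. M60654_at was at the floor in 13 of these groups, so its r mainly sets the 3 cortical groups, whose level picked Adra1d, against the rest. By ranks, Spearman's rho for Snap25 was 0.58. Nearest to AF071014mRNA_s_at were Nrgn (r = 0.90), a calmodulin-binding protein of dendrites, Stx1a (0.88), a syntaxin, Kcnh3 (0.88) and Kcng1 (0.86), potassium channel subunits, and Nr4a3 (0.86), a nuclear receptor. The lists of the 2 Adra1d probe sets shared no gene. Nearest to Adra2a were the growth factors Pdgfa (r = 0.87) and Vegfb (0.80), the proteoglycan Sdc3 (0.79), the neurotrophin receptor Ngfr (0.79) and the sodium pump subunit Atp1b2 (0.78). The 18 points share their arrays, so these values carry no p.

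Cell makeup differed between the regions that set these patterns. In the medial prefrontal cortex, where Adra1d was highest, 5 of 5 oligodendrocyte genes and 6 of 7 astrocyte genes were called lower than the mean of the other 5. The share of all probe sets called in that contrast is not given here, so these counts are not read as particular to glia. In the like contrast of the septum 50.9% of all probe sets were called. The summed oligodendrocyte signal was 3984 to 8307 on the 9 cortical arrays and 37196 to 48055 on the 9 arrays of the ventral tegmental area. The part of cell makeup in the Adra1d level was not tested.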

How the data were processed

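MAS5 produced the deposited values, per the submitters' processing notes. Each is an intensity of a probe set, on a linear scale. The MAS5 version, scaling target and detection calls are not given in the sources used here. The trimmed mean of the intensity lay between 250.8 and 251.3 on all arrays as deposited, and no array was identical to another. Arrays have no counts or depths, and their number limits the precision. Genes were named from the platform annotation (1137 of 1263 probe sets had 1 symbol, 8 several and 118 none); probe sets with several symbols name no gene here.

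Each array was rescaled over its non-control probe sets, floored at 32 and logged. Limma 3.58.1 in R 4.3.3 (lmFit, eBayes with an intensity trend) fitted the 3 access groups of each region, and 18 groups of region and access over all 63 arrays. Fold changes near the floor are understated. The fits were tested on simulated data. Alternatives changed the scaling, floor, filter, intensity trend, array weights, control levels as covariates, arrays fitted together, replicate block and each array left out.

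The members and gene lists were chosen with earlier results of these data known. The rule for named genes took all member probe sets, list genes passing in long against short access in the lateral hypothalamus or in the mean of long against no access (up to 4 each), and the 5 genes most alike per probe set. Same-numbered arrays of different access groups within a region were checked for pairing: the correlation of their deviations from group means was over 0.1 in 27 of 63 comparisons. It was over 0.1 in 8 of 9 in the medial prefrontal cortex (mean 0.42, lowest -0.05). In no region did all pairs exceed 0.1, so the numbers were not taken as pairs.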

Additional observations from a re-analysis of the deposited data

Results flagged for a closer look

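In 27 sets of 4 arrays (3 probe sets, 3 regions, 3 access groups), the highest or lowest array was compared with the others by Dixon's 95% critical value. Chance passes that value in about 1 set in 20 where no arrays are tied at the floor. In the amygdala, M60654_at of Adra1d was 45.5 on 1 no access array, with the other 3 under the floor. This is the amygdala array with the highest antisense control level, 7.98. M60654_at was also 39.1 on 1 short access array of the amygdala, with the other 3 under the floor. In the nucleus accumbens, Adra2a was 48.5 on 1 long access array, and the other 3, at 28.5 to 30.6, were under the floor. All 3 values lie near the floor of 32, and none belongs to a called result. With the other 3 arrays of a set tied at the floor, any signal above it passes, so these flags follow from the floor. Of 125 differences between regions in an access contrast that had not picked a gene, limma called 0 at an adjusted p under 0.05. An unadjusted p under 0.05 was found for 9, all of them differences of Adra2a between the amygdala and another region, in short against no or long against short access. The lowest adjusted p was 0.266. The share of all probe sets called in such differences is not given here, so the 0 calls are not read as particular to these genes. Between regions where M60654_at is wholly under the floor, its difference is fixed at 0.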

How the results depend on the processing

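Over 56 results and 1668 alternative values, 1659 were counted as keeping their direction or size and their side of the threshold. A result that was not called counted as kept while it stayed uncalled, also where its sign turned. Adra2a in the nucleus accumbens minus the medial prefrontal cortex changed sign in 13 of 72 alternatives. AF071014mRNA_s_at in the lateral hypothalamus, long against no access, ran from -1.05 to 1.54 around 0.13. Its sign turned in 4 of 24 alternatives, with a lowest limma adjusted p of 0.436. Adra2a in the septum minus the lateral hypothalamus was 0.10 when the 4 lateral hypothalamus arrays of no access were left out. Adra2a in the lateral hypothalamus minus the amygdala was 0.43 with array weights (limma adjusted p = 0.0509) and -1.03 with no access arrays only. The excess of Adra1d M60654_at in the medial prefrontal cortex was 5.26 with no floor, since 52 of 54 other arrays lie under it. The Adra2a difference in the lateral hypothalamus for long against no access was 1.02 with the spike-in level and 2.21 with the antisense level as a covariate. For short against no access it was 1.15 and 2.06 in these fits and 1.90 with quantile normalization. The cause of these moves was not tested. Leaving out 1 array at a time gave 1.61 to 1.90 for long against no access and 1.50 to 1.79 for short against no access. With a replicate block, long against no access stayed at 1.75, septum minus lateral hypothalamus was 0.72, and no call changed. In the medial prefrontal cortex, where same-numbered arrays mostly deviated together, the block left AF071014mRNA_s_at at -0.19 ± 0.19 for long against no access (log2, SE, limma adjusted p = 0.993). M60654_at stayed uncalled there in all 21 alternatives of each access contrast, with a lowest limma adjusted p of 0.660, in short against no access. Signal near the floor limits M60654_at outside the cortex and Adra2a in 3 regions, where a change could go unseen.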
